A study of Homo sapiens with 4 samples.

Results

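The genes of titin and its partners at the Z-disc, A-band and M-band of the heart muscle sarcomere were followed here in cardiac cultures of human embryonic stem cells with and without retinoic acid (RA). They are TTN, MYBPC3, MYOM1, MYOM2, ACTN2, LDB3, NEBL, TCAP, MYOZ2 and CSRP3. The 10 genes were taken by symbol from a list of sarcomere scaffold genes. The rule used no measured value, but the list was made with earlier results of these data known. Each symbol matched a single Ensembl identifier, so that the group holds 10 of the 60234 genes in the count table.

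The sarcomere is the contractile unit of heart muscle. Z-discs form its borders and anchor the thin actin filaments, the A-band holds the thick myosin filaments, and the M-band ties the thick filaments together in the middle. Titin, the protein of TTN, spans from the Z-disc to the M-band as an elastic filament and as a template along which the other proteins are placed.

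The cells came from the NKX2.5:GFP line of human embryonic stem cells, in which an NKX2-5 allele carries eGFP beside a wild type allele (eGFP/w), so that GFP marks cells in which this cardiac transcription factor gene is active. All 4 groups carried this allele and were differentiated as spin embryoid bodies. RA cultures received 1 µM retinoic acid from day 4 to day 7, and control (CTR) cultures received DMSO, the solvent, over the same days. Cells were sorted by GFP at day 31, and RNA sequencing gave 4 libraries, named here RA GFP+, RA GFP-, CTR GFP+ and CTR GFP-. Each condition had 1 library from a single line, with no replicate culture. No test between conditions was therefore possible, and the 95% intervals given with values cover counting error only, since reads without molecular identifiers are not independent molecules.

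The libraries held between 4371101 reads (CTR GFP-) and 28643091 reads (CTR GFP+) assigned to genes, and the other two held 26222787 and 28125727 reads. Levels are given as CPM, the reads of a gene relative to the size of its library after scaling by the trimmed mean of M values (TMM), in which 1 CPM is 1 read in 1000000. A count of 0 allowed a level of up to 0.105 to 0.639 CPM (3 reads), with the highest limit in CTR GFP-. All 9 cardiomyocyte markers were at least 2-fold higher in GFP+ than in GFP- cells in both treatments, with summed levels of 22165 CPM in CTR GFP+, 22833 CPM in RA GFP+, 1062 CPM in CTR GFP- and 610.5 CPM in RA GFP-. NKX2-5, on which the sort rests, is among these markers. Of the 12 skeletal muscle markers, 1 or 2 reached the level needed for a comparison, and the myogenic factors MYOD1 and MYF5 had at most 15 and 3 reads in any library. MYOG, also a myogenic factor, had 307 reads (11.5 CPM) in RA GFP+, 152 in CTR GFP+, 8 in RA GFP- and 12 in CTR GFP-, and in RA cultures it was higher in GFP+ cells by 3.25 on the log2 scale. TNNT3, the fast skeletal troponin T gene, had 16.5 CPM in CTR GFP+, 5.46 in RA GFP+, 7.88 in CTR GFP- and 17.97 in RA GFP-, and was lower in GFP+ than in GFP- cells of RA cultures, with a difference of -1.55. The 10 sarcomere genes took 0.607% of all reads in CTR GFP+, 0.400% in RA GFP+, 0.0341% in CTR GFP- and 0.0138% in RA GFP-.

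TTN (ENSG00000155657), the titin gene, lies at chr2:179390716-179695529 on the minus strand of GRCh37, and its annotated exons cover 118976 bases. TTN stood at 1734 CPM in CTR GFP+ (49678 reads), 1043 CPM in RA GFP+ (27897 reads), 112 CPM in CTR GFP- (527 reads) and 35.7 CPM in RA GFP- (917 reads). Both GFP+ libraries were far above both GFP- libraries, and within each fraction the RA library was the lower. The libraries kept strand but the counting did not, and the antisense gene TTN-AS1 covers 14004 exon bases of TTN (11.8%). TTN-AS1 itself had 608 reads in CTR GFP+, 256 in RA GFP+, 31 in CTR GFP- and 158 in RA GFP-, so that the reads of the shared bases cannot be told apart. A further 9 genes of the count table shared between 69 and 1455 exon bases with TTN, MYOM1 or NEBL on the opposite strand, and each had at most 44 reads in any library. LDB3 shared 1726 exon bases (16.4%) on the same strand with an annotated gene that has no row in the count table. CCDC141 shared 138 bases with TTN on the same strand, and its own level was 96.2 CPM in CTR GFP+ and 136 CPM in RA GFP+.

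MYBPC3 (ENSG00000134571; chr11:47352957-47374253, minus strand) encodes cardiac myosin binding protein C, which sits on the thick filament in the A-band. Its level was 1329 CPM in CTR GFP+ (38070 reads), 769 CPM in RA GFP+ (20554 reads), 20.02 CPM in CTR GFP- (94 reads) and 5.50 CPM in RA GFP- (141 reads). The order of the 4 libraries was that of TTN, with a wider gap between the fractions.

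The M-band genes encode myomesins, which crosslink thick filaments and bind the end of titin. MYOM1 (ENSG00000101605; chr18:3066805-3219966, minus strand) stood at 503 CPM in CTR GFP+ (14414 reads), 368 CPM in RA GFP+ (9827 reads), 32.2 CPM in CTR GFP- (151 reads) and 21.2 CPM in RA GFP- (545 reads). MYOM2 (ENSG00000036448; chr8:1993161-2113475, plus strand) stood at 15.4 CPM in CTR GFP+ (440 reads), 73.7 CPM in RA GFP+ (1971 reads), 4.47 CPM in CTR GFP- (21 reads) and 2.92 CPM in RA GFP- (75 reads). MYOM2 was thus highest in RA GFP+, whereas MYOM1 was highest in CTR GFP+.

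ACTN2 (ENSG00000077522; chr1:236827441-236927931, plus strand) encodes the sarcomeric alpha-actinin that crosslinks actin filaments in the Z-disc. It had 551 CPM in CTR GFP+ (15775 reads), 413 CPM in RA GFP+ (11033 reads), 26.0 CPM in CTR GFP- (122 reads) and 10.0 CPM in RA GFP- (257 reads). LDB3 (ENSG00000122367; chr10:88426542-88495829, plus strand) encodes a PDZ and LIM domain protein that binds alpha-actinin, and had 441 CPM in CTR GFP+ (12639 reads), 363 CPM in RA GFP+ (9694 reads), 16.8 CPM in CTR GFP- (79 reads) and 7.72 CPM in RA GFP- (198 reads). NEBL (ENSG00000078114; chr10:21068902-21581940, minus strand), which encodes the actin-binding nebulette, had 1024 CPM in CTR GFP+ (29332 reads), 725 CPM in RA GFP+ (19395 reads), 81.4 CPM in CTR GFP- (382 reads) and 41.9 CPM in RA GFP- (1075 reads). These 3 genes shared the order CTR GFP+, RA GFP+, CTR GFP-, RA GFP-, from highest to lowest.

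The remaining Z-disc genes encode small proteins. TCAP (ENSG00000173991; chr17:37821602-37822807, plus strand) encodes telethonin, the cap on the Z-disc end of titin, and had 65.6 CPM in CTR GFP+ (1881 reads), 58.3 CPM in RA GFP+ (1558 reads), 7.45 CPM in CTR GFP- (35 reads) and 3.94 CPM in RA GFP- (101 reads). MYOZ2 (ENSG00000172399; chr4:120056987-120108944, plus strand) encodes a myozenin, also called calsarcin, that tethers calcineurin to the Z-disc. It had 81.4 CPM in CTR GFP+ (2333 reads), 38.4 CPM in RA GFP+ (1026 reads), 6.18 CPM in CTR GFP- (29 reads) and 5.77 CPM in RA GFP- (148 reads). CSRP3 (ENSG00000129170; chr11:19203577-19232118, minus strand) encodes muscle LIM protein, and had 322 CPM in CTR GFP+ (9219 reads), 358 CPM in RA GFP+ (9579 reads), 10.7 CPM in CTR GFP- (50 reads) and 6.12 CPM in RA GFP- (157 reads). TCAP and MYOZ2 were highest in CTR GFP+, and CSRP3 was slightly higher in RA GFP+.

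**Figure D1:**
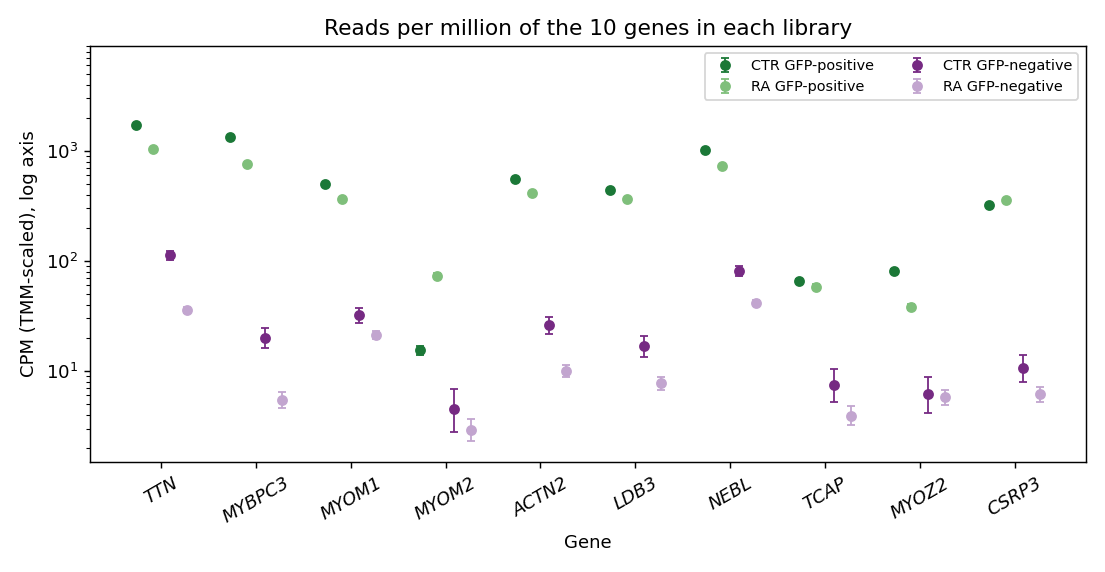
Level of each of the 10 genes (TMM-scaled CPM, log axis) in the 4 libraries, as points with exact Poisson 95% intervals for counting error. For every gene both GFP+ points lie above both GFP- points, and MYOM2 and CSRP3 are the genes whose RA GFP+ point lies above the CTR GFP+ point.

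The first comparison asked how far these genes marked the GFP+ fraction. A gene was compared where it reached 10 CPM in either library, and was called where the difference of log2(CPM + 1) was at least 2-fold. All 10 genes were higher in GFP+ cells in both treatments. Over all genes compared, 11.9% of 11806 were called higher and 13.3% lower in CTR, and 9.97% of 11850 higher and 12.4% lower in RA. The count of 10 is not read against these shares, since 3 of the genes in CTR and 6 in RA reached 10 CPM in GFP+ alone. With a minimum of 1 CPM, which all 10 genes reached in every library, 14.1% of genes were higher in CTR and 10.2% in RA. The median difference of the 10 genes was 3.93 in CTR and 4.54 in RA on the log2 scale. Medians over all genes compared were 0.08 and 0.02, and entry through GFP+ alone limits this comparison as well. In sorted bulk samples, fewer cells of a type and less RNA per cell cannot be told apart.

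MYBPC3 had the widest gap of the group. Its CPM was 66.4 times (interval 54.2 to 82.2) as high in GFP+ as in GFP- cells in CTR, and 139.9 times (118 to 166) in RA. Among all genes compared its difference ranked 6 in CTR. CSRP3 followed with ratios of 30.2 (22.9 to 40.7) and 58.5 (50.0 to 69.0), at rank 19 in CTR. In RA both genes reached 10 CPM in GFP+ alone, so that no rank is given there. TTN was below both, with ratios of 15.5 (14.2 to 16.9) in CTR and 29.2 (27.3 to 31.2) in RA.

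The smallest gaps belonged to different genes in the CTR and RA cultures. In CTR the lowest ratio was that of MYOM2, at 3.43 (2.22 to 5.60), and in RA that of MYOZ2, at 6.65 (5.59 to 7.96). MYOM2 itself had a ratio of 25.2 (20.02 to 32.2) in RA, and MYOZ2 one of 13.2 (9.15 to 19.7) in CTR. MYOZ2 was the only gene of the group with a lower ratio in RA than in CTR.

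Seen from the other side, GFP- cells held the 10 genes at 1.51% to 29.1% of the GFP+ level in CTR (median 6.43%) and at 0.715% to 15.0% in RA (median 3.70%). The 9 cardiomyocyte markers were at 2.43% to 22.2% (median 4.82%) and at 1.61% to 9.13% (median 2.89%). The sarcomere genes therefore covered a range similar to that of the markers, with MYBPC3 below the lowest marker in both treatments.

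**Figure D2:**
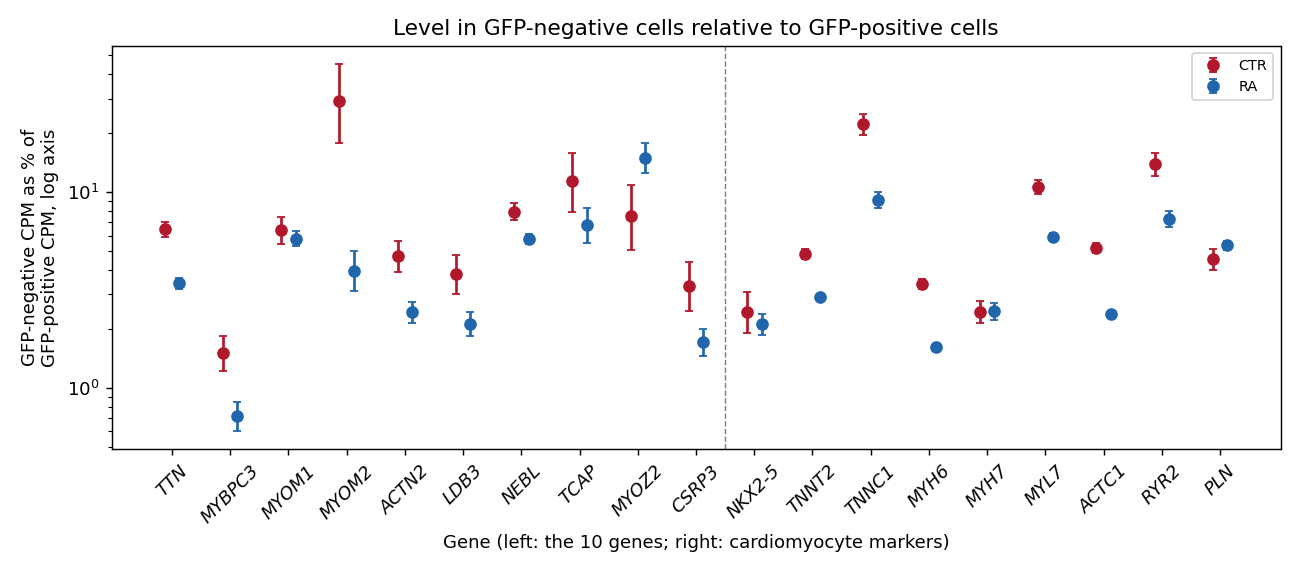
CPM in GFP- cells as a percentage of CPM in GFP+ cells (log axis) for the 10 genes on the left of the dashed line and 9 cardiomyocyte markers on the right, in CTR and RA, with 95% intervals for counting error. MYBPC3 is lowest in both treatments (1.51% and 0.715%), and MYOM2 in CTR is highest (29.1%).

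Counted against the summed reads of the 9 cardiomyocyte markers in the same library, a ratio within a library that shows unequal change and not expression as such, ACTN2 was the gene whose interval included no gap between fractions in either treatment. ACTN2 had 24.8 reads per 1000 marker reads in CTR GFP+ and 24.5 in CTR GFP-, a ratio of 1.02 (0.849 to 1.22). MYBPC3 had 59.9 against 18.9, a ratio of 3.18 (2.60 to 3.94), and was thus lower in GFP- cells than these markers were. MYOM2 had 0.693 against 4.21, a ratio of 0.164 (0.106 to 0.268). In RA cultures the ratios of these 3 genes were 1.10 (0.973 to 1.25), 3.74 (3.17 to 4.45) and 0.674 (0.535 to 0.861). Over the group the ratio was above 1 for ACTN2, LDB3, MYBPC3 and CSRP3 and below 1 for the other 6 genes in both treatments.

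The second comparison concerned RA in GFP+ cells, the fraction sorted by NKX2.5:GFP. MYOM2 was higher and MYOZ2 was lower with RA, and the other 8 genes stayed under the 2-fold threshold. That gave 1 gene higher among 10, against 4.14% of 11186 genes, and 1 lower, against 1.67%. The median over the 10 genes was -0.43 on the log2 scale, with 0.02 over all genes.

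MYOM2 rose from 15.4 to 73.7 CPM with RA in GFP+ cells, by 2.19 on the log2 scale and with a CPM ratio of 4.80 (4.33 to 5.33). It ranked 111 among the rises of all genes compared. MYOZ2 dropped by 1.07 on the log2 scale, from 81.4 to 38.4 CPM, with a ratio of 0.471 (0.437 to 0.507). Its interval reached above the 2-fold mark, and with 5 CPM in place of 1 CPM added before the logarithm it was no longer called.

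Below the threshold, the 2 largest genes by reads had the lowest ratios. The CPM ratio of RA to CTR was 0.602 (0.593 to 0.611) for TTN and 0.579 (0.569 to 0.588) for MYBPC3, differences of -0.73 and -0.79 on the log2 scale. Ratios were 0.709 for NEBL, 0.731 for MYOM1, 0.749 for ACTN2 and 0.822 for LDB3. TCAP had a ratio of 0.888 (0.829 to 0.950) and CSRP3 one of 1.11 (1.08 to 1.15). Counting error alone left all 10 of these intervals clear of 1, and the spread between cultures was not measured.

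**Figure D3:**
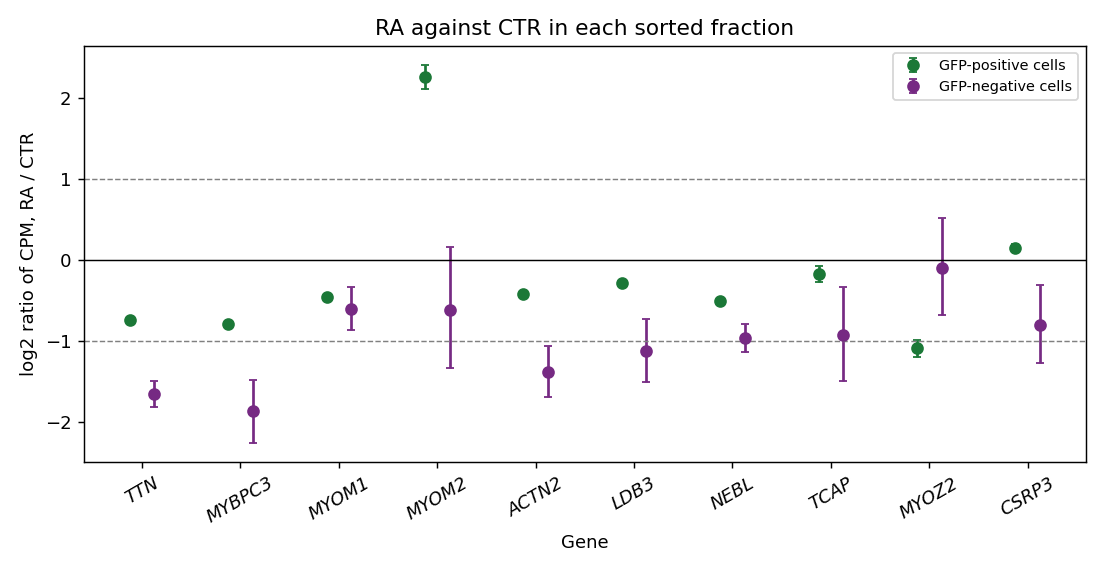
Log2 ratio of CPM, RA over CTR, for the 10 genes in GFP+ and GFP- cells, with 95% intervals for counting error; dashed lines mark 2-fold. In GFP+ cells MYOM2 lies above the upper line and MYOZ2 just below the lower line. In GFP- cells TTN, MYBPC3, ACTN2 and LDB3 lie below the lower line. The intervals of MYOZ2 in GFP+ cells and LDB3 in GFP- cells cross that line.

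The GFP+ fractions differed in other markers as well. Of the 9 cardiomyocyte markers, MYH7 alone was called lower with RA and none higher (median -0.13). The 5 fibroblast markers were all higher, with a summed level of 3462 CPM in CTR GFP+ and 13100.2 CPM in RA GFP+ and none of them at 0. Of the 5 smooth muscle markers, MYH11, ACTA2 and TAGLN were higher, and the sum went from 551 to 1135 CPM. Of the 2 skeletal muscle markers compared, TNNT3 was lower, with a ratio of 0.331. MYOG went the other way, from 5.30 to 11.5 CPM, by 0.985 on the log2 scale and under the threshold. Among the markers of gut and liver endoderm AFP was higher, at 0.279 CPM in CTR GFP+ and 22.6 CPM in RA GFP+, whereas TTR had 3.28 and 0.411 CPM. Among those of neural and eye cells STMN2 was higher, at 1.26 and 42.5 CPM, whereas DCT had 5.48 and 1.31 CPM and PAX6 and SOX2 had under 10 CPM in both libraries. Their part in the differences of the sarcomere genes was not tested. Per summed read of the cardiomyocyte markers, the RA to CTR ratio was 0.584 for TTN, 0.562 for MYBPC3, 0.457 for MYOZ2 and 4.66 for MYOM2. These values were close to the ratios of CPM, but they depend on the markers summed. ACTC1 went from 4839 to 7538 CPM with RA, and MYH7 from 2111 to 664 CPM. Of the 9 markers, 2 had an interval of the ratio above 1 and 7 had one below 1.

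The third comparison concerned RA in GFP- cells, where the genes were near the bottom of their range. TTN and ACTN2, at 10 CPM or more in both libraries, were lower. MYBPC3 and LDB3 were lower as well, but they reached 10 CPM in CTR GFP- alone, so that the count is not read against the 3.18% of 11606 genes called lower and the 4.95% called higher. With a minimum of 1 CPM, which all 10 genes reached in both libraries, these 4 genes were lower and none was higher, where 7.61% of genes were lower and 8.69% higher. With library size alone as scaling, 3.78% of all genes were higher and 4.31% lower, and 5 genes of the group were lower, NEBL being the added one. MYOM2, TCAP and MYOZ2 stayed under 10 CPM in both libraries. Without the minimum the median over all 10 genes was -0.86.

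TTN decreased by 1.62 on the log2 scale, from 112 to 35.7 CPM, a ratio of 0.318 (0.286 to 0.355). MYBPC3 decreased by 1.69, from 20.02 to 5.50 CPM, a ratio of 0.275 (0.210 to 0.360). ACTN2 and LDB3 had ratios of 0.386 (0.310 to 0.482) and 0.459 (0.352 to 0.603). The last of these lay just inside the threshold, and NEBL, at 0.515 (0.458 to 0.580), just outside it.

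CSRP3 and MYOM1 had ratios of 0.575 (0.416 to 0.807) and 0.661 (0.551 to 0.796) in GFP- cells. For the genes under 10 CPM the ratios were 0.528 (0.356 to 0.800) for TCAP, 0.654 (0.398 to 1.12) for MYOM2 and 0.934 (0.624 to 1.44) for MYOZ2. A difference of MYOM2 or MYOZ2 was not detectable at this depth, with 21 and 29 reads in CTR GFP-.

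The cardiomyocyte markers were also lower in RA GFP- than in CTR GFP- cells, with a summed level of 610.5 against 1062 CPM, a median of -0.90 and 3 of 9 called lower (MYH7, RYR2 and TNNC1). With the libraries scaled to these markers, 6 of the 10 genes reached 10 CPM and none of them was called lower on log2(CPM + 1), the lowest being MYBPC3 at -0.97. Per marker read, with nothing added, the ratio was 0.554 (0.497 to 0.618) for TTN, 0.477 (0.365 to 0.627) for MYBPC3, 0.670 (0.538 to 0.839) for ACTN2 and 0.798 (0.612 to 1.05) for LDB3. MYOM1 came to 1.15 (0.957 to 1.39) and MYOZ2 to 1.62 (1.09 to 2.51). TTN and MYBPC3 were thus the genes of the group furthest below the summed marker reads in this fraction. The markers themselves changed unequally, with MYH7 at 51.3 CPM in CTR GFP- and 16.4 CPM in RA GFP-, and PLN at 59.6 and 59.7 CPM. The fibroblast markers summed to 25488 CPM in CTR GFP- and 48518 CPM in RA GFP-, with 3 of 5 called higher (DCN, LUM and COL1A1). The smooth muscle markers went from 806 to 1490 CPM, with TAGLN called higher among 5, and TNNT3 of the skeletal muscle markers was higher with a ratio of 2.28. The gut and liver endoderm markers went from 82.4 to 629 CPM (AFP, APOA1 and ALB higher, TTR lower) and the neural and eye markers from 256 to 102 CPM (DCT, PAX6 and SOX2 lower, STMN2 higher). The part of these markers in the result was not tested.

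Between genes, levels were compared per length, as CPM per kilobase of annotated exon (RPKM). In CTR GFP+ cells the order began with MYBPC3 (311 RPKM) and CSRP3 (197 RPKM), followed by MYOM1 (78.2), TCAP (68.4), NEBL (57.5), LDB3 (41.8), MYOZ2 (31.9), ACTN2 (30.7), TTN (14.6) and MYOM2 (2.18). TTN, which had the most reads of the group, came 9th by this measure. In RA GFP+ cells CSRP3 (219 RPKM) stood above MYBPC3 (180.1 RPKM), and MYOM2 (10.5) stood above TTN (8.77). When the length of the longest transcript was used in place of all exons, 6 genes in CTR GFP+ and 4 in RA GFP+ took another place. NEBL then came to 115 RPKM in CTR GFP+, and MYBPC3 and CSRP3 stayed at the top in both libraries.

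**Figure D4:**
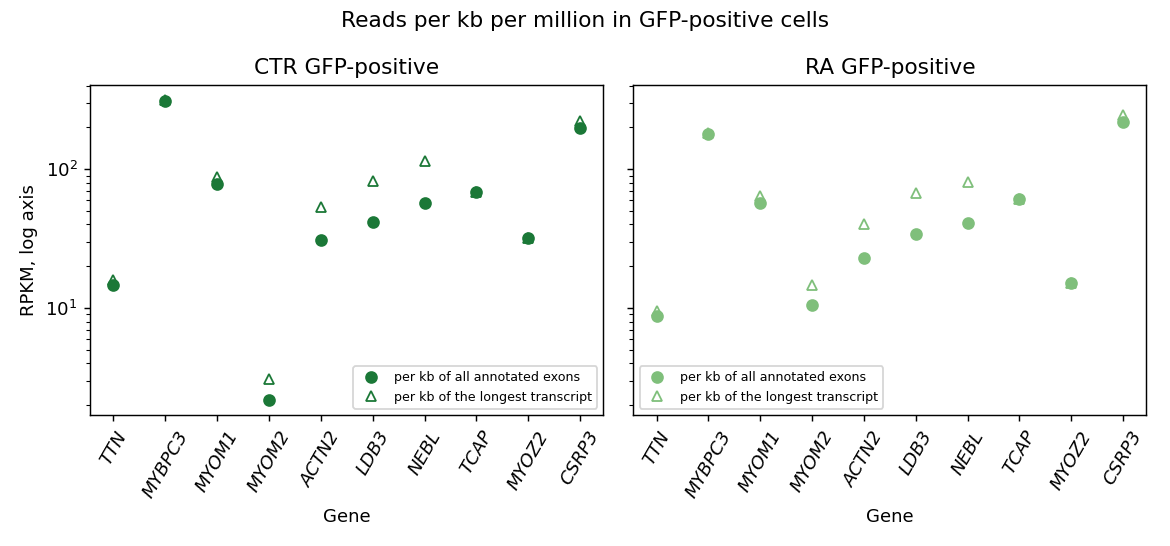
RPKM (log axis) of the 10 genes in CTR GFP+ and RA GFP+ cells, per kilobase of all annotated exons (circles) and of the longest transcript (triangles). MYBPC3 and CSRP3 lie highest in both libraries, and MYOM2 moves from 2.18 RPKM in CTR to 10.5 RPKM in RA.

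Within gene families, the make-up was compared as the share of a family's summed RPKM. MYOM2 held 2.70% of the myomesins in CTR GFP+ and 15.3% in RA GFP+, with 11.1% and 10.5% in CTR GFP- and RA GFP-. As a share of the reads of MYOM1 and MYOM2 alone, a pair chosen after its values were seen, MYOM2 had 2.96% (2.70 to 3.25) in CTR GFP+, 16.7% (16.0 to 17.4) in RA GFP+, 12.2% (7.72 to 18.1) in CTR GFP- and 12.1% (9.64 to 14.9) in RA GFP- (Clopper-Pearson intervals). CTR GFP+ was the library with the low share of MYOM2.

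MYOZ2 held 67.8% of the myozenins in CTR GFP+ and 50.6% in RA GFP+, with 37.4% and 44.5% in CTR GFP- and RA GFP-. Its relative MYOZ1, the myozenin best known from fast skeletal muscle, had 16.6 CPM in CTR GFP+ and 17.0 CPM in RA GFP+. CSRP3 held 84.1% and 87.7% of its family in CTR GFP+ and RA GFP+, but 11.0% and 6.82% in the GFP- libraries, where CSRP2 held 63.4% and 57.9%. ACTN2 held 23.5% and 20.03% of the alpha-actinins in the GFP+ libraries and 1.27% and 0.405% in the GFP- libraries, where the non-muscle genes ACTN4 and ACTN1 held most of the rest. ACTN4 was at 66.2% and 66.3% there, or at 50.0% and 48.6% by the longest transcript, by which ACTN1 was at 45.7% and 50.0%. NEBL held 88.2% and 77.6% of the nebulin family in GFP+ cells and 13.6% and 4.29% in GFP- cells, with LASP1, expressed in many tissues, at 85.3% and 95.4%. MYBPC3 held 97.9% and 95.01% of the myosin binding protein C family in GFP+ cells, and 61.2% and 29.02% in GFP- cells.

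**Figure D5:**
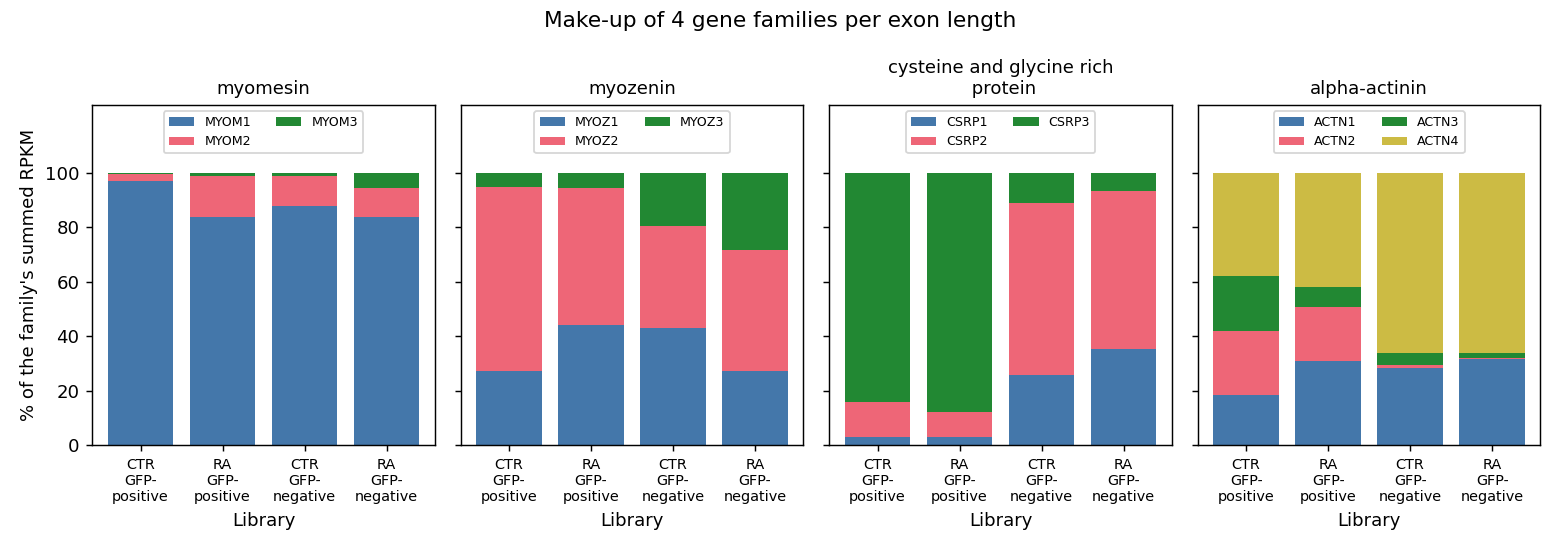
Share of each family's summed RPKM (percent) held by its genes in the 4 libraries, for myomesins, myozenins, cysteine and glycine rich proteins and alpha-actinins. MYOM2 widens from 2.70% to 15.3% between CTR GFP+ and RA GFP+, and CSRP3 and ACTN2 hold most of their share in GFP+ cells.

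Other genes of the same structures were read from further lists. Of 15 further Z-disc and costamere genes, 12 could be compared in GFP+ cells, and with RA 2 were higher and none lower (median -0.02), where 4.14% and 1.67% of all genes were. These were SYNPO2, an actin-bundling synaptopodin relative, from 26.1 to 106 CPM, and PDLIM3, an alpha-actinin binding LIM protein, from 94.6 to 279 CPM. Of 16 further M-band and titin-associated genes, 13 could be compared, with none higher and 3 lower (median -0.45), against the same shares. FHL2, a LIM protein that binds titin, went from 564 to 211 CPM, CKM, the muscle creatine kinase of the M-band, from 338 to 158 CPM, and TRIM54, a ring finger protein of muscle, from 52.0 to 25.2 CPM. All 8 genes for sarcomere assembly and titin splicing were below the threshold, with differences from -0.84 to -0.11, RBM20, a splicing factor of titin, among them at 81.9 and 71.8 CPM. Among 15 relatives of the group, 10 could be compared, and ACTN3, the fast-fibre alpha-actinin, was lower, from 91.8 to 29.1 CPM.

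In GFP- cells with RA, the same lists had 1 of 9 Z-disc genes lower (CRYAB), 1 of 8 M-band genes lower (CMYA5), 0 of 6 assembly genes and 2 of 12 relatives lower (NEB and ACTN3), with none higher. NEB and ACTN3 reached 10 CPM in CTR GFP- alone. Over all genes 3.18% were lower and 4.95% higher, and counts this small say little about the lists.

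Between the fractions, 11.9% of all genes were higher and 13.3% lower in CTR, and 9.97% and 12.4% in RA. The counts of the lists are not read against these shares, since part of the called genes reached 10 CPM only in the fraction where they were higher. Of the further M-band genes, 11 of 13 were higher in GFP+ cells in CTR and 10 of 13 in RA, with CKM at ratios of 159 and 113, CKMT2 at 42.3 and 27.4 and TRIM55 at 19.6 and 36.0. These 3 were among the 5 genes in CTR and 6 in RA that reached 10 CPM in GFP+ alone. FHL2, at 10 CPM or more in both fractions, came directly after CKM in CTR by the difference of log2(CPM + 1). It had 564 CPM in CTR GFP+, 19.2 in CTR GFP-, 211 in RA GFP+ and 25.45 in RA GFP-. FHL1 and ANKRD1, a stress-responsive ankyrin repeat gene, were lower in GFP+ cells in both treatments. Of the assembly genes, 7 of 8 were higher in both treatments, UNC45B and LMOD2 entering through GFP+ alone. By the difference of log2(CPM + 1), UNC45B, a myosin chaperone, came first in both, at ratios of 37.02 and 29.8, and SMYD1, LMOD2 and RBM24 were the next 3. LMOD2, with 3 reads in CTR GFP-, had larger ratios of 55.3 (18.9 to 269) and 156 (66.4 to 481), and SMYD1 had 25.3 and 26.9.

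The further Z-disc genes had 6 of 12 higher in CTR, with CRYAB lower, and 7 of 11 higher in RA, of which 2 and 3 entered through GFP+ alone, XIRP1 among them in both. XIRP1, a Z-disc and intercalated disc protein gene, had the widest gap of the list at ratios of 23.1 and 53.0, and SYNPO2L had 5.41 and 8.31. Of the relatives of the group, 1 of 12 was higher and 4 were lower in CTR, and 2 of 11 were higher and 3 lower in RA. ACTN3 was higher in GFP+ cells at ratios of 5.45 and 4.03, and PDLIM2 (0.208 and 0.157), LASP1 (0.249 and 0.223) and CSRP1 (0.464 and 0.373) were lower in both treatments. PDLIM2 entered through GFP- alone in both, as did NEB in CTR, and ACTN3 and MYBPC2, the 2 relatives called higher in RA, entered through GFP+ alone there.

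The genes whose profile over the 4 libraries was closest to the mean of the group were found by Euclidean distance of centred log2(CPM + 1) values among 12407 genes. The 10 closest outside the group were TRIM55, HHATL, GJA3, TNNI1, SLC30A3, DPY19L2P1, LMOD2, TNNT2, SMYD1 and MB, at distances from 0.12 to 0.50. TRIM55 binds titin, TNNI1 and TNNT2 encode troponins, and MB encodes myoglobin. With 4 points per gene, of which the fraction sets most of the spread, the likeness is a description. Within the group MYBPC3 (2.25), MYOM2 (2.21) and MYOZ2 (1.52) lay furthest from the mean, and MYOM1 (0.43) lay closest.

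Because TTN, MYBPC3 and MYOZ2 had the 3 lowest RA differences of the group in GFP+ cells, the sequence before the start of each gene is shown. Promoters were read from RefSeq on GRCh38.p14, a different build from the gene positions above. They matched 7 of the 10 genes, with 12 starts. MYOM2, TCAP and CSRP3 had no entry. Capitals mark a match to the binding motif of MEF2, a muscle transcription factor, in the 250 bases upstream. They are printed 5′ to 3′ in the direction of the gene, TTN from chr2:178807424-178807673 (minus strand), MYBPC3 from chr11:47352703-47352952 (minus strand) and MYOZ2 from chr4:119135582-119135831 (plus strand).
TTN: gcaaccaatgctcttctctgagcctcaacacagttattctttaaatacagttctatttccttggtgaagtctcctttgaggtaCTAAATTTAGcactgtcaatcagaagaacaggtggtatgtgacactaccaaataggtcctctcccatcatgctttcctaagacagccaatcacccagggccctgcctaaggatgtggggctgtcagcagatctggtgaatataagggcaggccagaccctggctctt
MYBPC3: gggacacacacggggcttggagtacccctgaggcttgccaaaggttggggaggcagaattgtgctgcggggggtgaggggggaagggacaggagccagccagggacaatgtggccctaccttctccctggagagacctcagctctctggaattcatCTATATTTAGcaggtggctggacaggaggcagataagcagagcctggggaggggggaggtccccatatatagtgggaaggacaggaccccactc
MYOZ2: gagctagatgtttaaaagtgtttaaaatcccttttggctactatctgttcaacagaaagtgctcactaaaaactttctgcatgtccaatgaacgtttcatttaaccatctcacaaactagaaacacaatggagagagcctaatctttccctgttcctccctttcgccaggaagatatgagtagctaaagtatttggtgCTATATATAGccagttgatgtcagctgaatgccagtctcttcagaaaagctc

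The MEF2 match began 167 bases upstream of the start in TTN, 94 bases in MYBPC3 and 52 bases in MYOZ2. The 12 windows of the 7 genes include 5 of NEBL and 2 of LDB3, some of which overlap. The MEF2 motif was found in 3 of the 12, and in 2.80% of 35116 promoters of the same length. The CArG box, bound by serum response factor, was found in 3 of the 12, those of LDB3 and MYOM1, and in 1.16% of promoters. On both strands GATAA was found in 3 windows (MYBPC3, MYOM1 and NEBL; 20.4% of promoters), AAGTG, a motif of NKX2-5, in 6 (MYOM1, NEBL and MYOZ2; 37.6%), and the E-box CANNTG in 9, of all genes but LDB3 (61.8%). An E-box followed the MEF2 match of MYBPC3 directly, from 84 to 79 bases upstream, 2 matches of AAGTG in NEBL lay inside an E-box, and 1 match in MYOM1 shared a base with a GATA match. CATTCC (11.9% of promoters) and TATAAA (10.7%) were not found in these windows of the 7 genes. A match is a description of the letters and not a binding site, and the genes for which it was shown were chosen after their values were seen.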

How the data were processed

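Strand-specific RNA-seq libraries of sorted NKX2.5:GFP cells were sequenced in pairs, aligned by the authors to hg19 with GSNAP 2014-12-06, sorted with SAMtools 0.1.18 and counted per gene with HTSeq 0.6.1p1 (versions as in the submitters' processing notes). Per the paper's methods, reads had to map to a unique place and were counted without strand (intersection-nonempty). Near-identical genes and antisense pairs can therefore lose reads. The Ensembl release was not given in the sources used here. The deposited values were whole-number counts per gene, without normalization.

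Counts of the 4 libraries, 1 per condition, were scaled with TMM (edgeR 4.0.16) over all genes and expressed as CPM. Differences were taken on log2(CPM + 1), which understates changes of low genes. A gene was compared where it reached 10 CPM in either library and called at 2-fold. With 1 library per condition no test was made. Exact Poisson and Clopper-Pearson 95% intervals were computed with scipy 1.17.1. Gene positions and exon lengths came from GENCODE v44lift37 (GRCh37), and promoters from RefSeq (GRCh38.p14).

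The 10 genes and the lists were chosen with earlier results of these data known. The text names all 10 genes, called genes of each list (from the 4 with the largest differences, or fewer), genes overlapping their exons and the 10 nearest profiles, and gives a few further genes of the lists with their values. Scripts were tested on simulated data. Alternatives were other scalings (library size, DESeq2 1.42.0 size factors, upper quartile, TMM of each pair, library size without mitochondrial and top genes), pseudocounts of 0.25 and 5 CPM, other filters and thresholds, thinning to 4371101 reads, and another gene length.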

Additional observations from a re-analysis of the deposited data

Results flagged for a closer look

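For 2 genes the RA difference had opposite signs in the 2 fractions, each resting on 1 library per condition. MYOM2 differed by 2.19 on the log2 scale in GFP+ cells and by -0.48 in GFP- cells, where it had 75 and 21 reads and its interval included no difference. CSRP3 differed by 0.15 in GFP+ cells and by -0.71 in GFP- cells, both under the 2-fold threshold. Whether the fractions differ in their RA response was not tested, since no condition had a replicate. With the libraries scaled to the reads of the cardiomyocyte markers, a choice made after seeing the data, MYOM2 differed by 2.15 and 0.14 and CSRP3 by 0.11 and -0.00099, so that the opposite signs of MYOM2 were lost and CSRP3 was near 0 in GFP- cells.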

How the results depend on the processing

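The sign of the difference of each of the 10 genes was the same in all 4 comparisons under the 5 other library scalings, both pseudocounts and the thinned depth, but not under a scaling to the cardiomyocyte markers. In GFP+ cells with RA, the count of genes called lower was 1, and came to 0 with 5 CPM added before the logarithm, 3 at 1.5-fold and 0 at 4-fold. In GFP- cells with RA it was 4, and came to 3 with 5 CPM added, 6 at 1.5-fold, 0 at 4-fold, and 5 under library size, upper quartile and library size without mitochondrial and top genes. Scaling to the reads of the cardiomyocyte markers, chosen after seeing the data and applied to RA against CTR, gave 0 there. That scaling moved the median of all genes in GFP- cells from 0.08 to 0.85, so that 37.2% of all genes were called higher, and MYOM1, MYOM2 and MYOZ2 then turned from -0.58, -0.48 and -0.08 to 0.19, 0.14 and 0.60. Between fractions it was applied to plain ratios alone, where TTN, MYOM1, MYOM2, NEBL, TCAP and MYOZ2 turned from above 1 to below 1 in both treatments. Library size alone moved the median of all genes from 0.08 to -0.02 between fractions in CTR and from 0.08 to -0.05 in GFP- cells with RA. With the longest transcript as length, 4, 5, 6 and 8 genes took another place in the RPKM order of RA GFP+, RA GFP-, CTR GFP+ and CTR GFP-. The depth of CTR GFP-, 4371101 reads, limits every value of the GFP- comparison. No paired analysis was possible because each condition had 1 library and no test was made.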
